A study of Mus musculus with 8 samples.

Results

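The genes described here encode MHC class I and the machinery that loads it with peptide, measured in sorted 8F10 T cells. They are 10 of the 46625 gene names in the deposited count table, taken by name: B2m, H2-K1, H2-D1, Tap1, Tap2, Tapbp, Psmb8, Psmb9, Psmb10 and Nlrc5. All 10 passed the filter on low counts, with between 96 counts (Tap2) and 193441 counts (B2m) in a single library. The 8F10 cells carry 1 T cell receptor that sees a peptide of insulin, and their donors (CD45.2) lacked the TCR alpha chain. Donor marrow depleted of T and B cells was given to CD45.1 hosts after non-lethal irradiation, and 8F10 cells were sorted from the inguinal nodes 6 weeks later. The hosts were either NOD mice, which make native insulin, or B16A mice, whose insulin is altered in the B chain. Every sample is labelled NOD/ShiLtJ, no further agent is named, and non-lethal irradiation leaves host cells in place. Each host gave 4 libraries, 1 in each of 4 labelled batches. The comparison asks whether the same T cells differ according to the insulin their host makes.

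Class I molecules sit on nearly every nucleated cell and show short peptides from the cell's own proteins to CD8 T cells. A heavy chain pairs with beta-2-microglobulin. The proteasome cuts the peptides, the TAP pump, built of TAP1 and TAP2, moves them into the endoplasmic reticulum, and tapasin holds the empty class I molecule beside the pump until a peptide fits. Lymphocytes and cells exposed to interferon exchange 3 catalytic subunits of the proteasome for inducible ones, giving the immunoproteasome. Nlrc5 is a transcriptional coactivator that works with RFX, CREB or ATF and NF-Y factors at a composite element shared by class I promoters. In CD4 T cells such as these the pathway displays self peptides and has no part in their own recognition of antigen, which uses class II.

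Letters known from that element were looked for in the promoter sequences, and 3 promoters are shown because they hold a CREB-type core and an NF-Y-type core at the same distance. RefSeq promoter sequences (GRCm38.p6, C57BL/6J) were matched for 8 of the 10 genes, all but Tap2 and Nlrc5. Within the 250 bases before the RefSeq start site, B2m, H2-K1 and H2-D1 each held TGACG followed by ATTGG with exactly 20 bases between them. GENCODE vM21 annotates all 250 of these bases of H2-D1 as exon of that gene, so by that annotation its stretch lies inside the gene. The windows of Tap1, Tapbp, Psmb8 and Psmb9 were also wholly exonic there. In the lines that follow, read 5′ to 3′ on the gene's strand, the capitals mark TGACG and ATTGG.
B2m, chr2:122147609-122147638, plus strand: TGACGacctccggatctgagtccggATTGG
H2-K1, chr17:34000359-34000388, minus strand: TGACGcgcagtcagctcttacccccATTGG
H2-D1, chr17:35262993-35263022, plus strand: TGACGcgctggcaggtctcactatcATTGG
The H2-K1 and H2-D1 stretches were identical at 23 of 30 positions, and the B2m stretch matched them at 13 and 12, of which 10 are the letters searched for. On either strand, 30 of 32851 promoters in the table (0.0913%) held this arrangement. They belonged to 26 genes, among them H2-M3 of the other class I genes. The spacing was chosen after the 3 sequences had been read, so this share is a description.

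Longer stretches of B2m and H2-K1 show what lies upstream. Capitals mark the TGACG-to-ATTGG stretch, the interferon factor core AANNGAAA on either strand (TTTCACTT in H2-K1 is the reverse complement of a match) and, in H2-K1, the NF-kB-type letters GGGGATTCC.
B2m, chr2:122147437-122147685, plus strand: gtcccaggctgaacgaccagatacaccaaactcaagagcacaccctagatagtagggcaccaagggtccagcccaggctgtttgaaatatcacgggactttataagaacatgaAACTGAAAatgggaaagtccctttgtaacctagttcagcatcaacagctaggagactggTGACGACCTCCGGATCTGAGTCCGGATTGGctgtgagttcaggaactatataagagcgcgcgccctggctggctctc
H2-K1, chr17:34000348-34000597, minus strand: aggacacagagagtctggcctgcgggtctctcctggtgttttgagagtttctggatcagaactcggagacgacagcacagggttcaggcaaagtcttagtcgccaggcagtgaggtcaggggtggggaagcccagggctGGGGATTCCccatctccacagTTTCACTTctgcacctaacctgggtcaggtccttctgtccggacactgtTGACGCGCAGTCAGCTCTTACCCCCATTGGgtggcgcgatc
Counting both strands, AANNGAAA was found in B2m, H2-K1 and H2-D1 and in 21.3% of all promoters. GGGGATTCC was found in H2-K1 and H2-D1 and in 70 of 32851 promoters (0.213%). TGACG was found in 5 of the 8 and in 17.8% of all promoters, and ATTGG in 6 of the 8 and in 33.8%. Tap1 and Psmb9 are read in opposite directions from RefSeq start sites on chromosome 17 (34187556 and 34187330) with 225 bases between them, so their windows share these bases and are not independent. A match of letters is not evidence of a bound factor.

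The libraries held T cell RNA, and 1 batch stood apart. Levels are given as CPM, counts scaled to the library's total after TMM adjustment. The 8 T cell markers were detected in all libraries, and together reached 5157 to 15559 CPM in NOD hosts and 4555 to 11838 CPM in B16A hosts. The 7 B cell markers summed to 2.06 to 26.4 CPM and 3.65 to 15.3 CPM, with none at 0 in all libraries. The 11 myeloid and dendritic cell markers, with Cst3 the highest in every library, summed to 122 to 146 CPM and 91.3 to 144 CPM. The 5 NK cell markers summed to 6.02 to 20.4 CPM and 8.58 to 22.8 CPM. The 2 CD8 genes, nearly all of it Cd8b1, summed to 65.3 to 186 CPM and 71.7 to 123 CPM. The 5 erythroid markers stayed at or under 4.99 CPM, with Hba-a2 at 0, and the 5 stromal and endothelial markers, mostly Pecam1, summed to 270.1 to 411 CPM, with Pdpn at 0. Library totals ran from 4896593 to 6137666 counts in the first 3 batches. Batch 4 reached 28301805 (NOD) and 28094237 (B16A), and its libraries also differ in makeup: Gm10800 took 0.00205% and 0.00469% of their counts against 5.87% to 17.1% elsewhere. Results are therefore given with and without batch 4. In such bulk RNA, fewer cells with a transcript and less of it per cell cannot be told apart.

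No class I pathway gene was called different between T cells from NOD and from B16A hosts. The edgeR quasi-likelihood test without a batch term called 0 of the 10 genes, against 0% of the 14607 genes tested. Its 95% intervals were wide, and for 7 of the 10 genes they held a 2-fold difference. At an unadjusted p under 0.05 the test held 0 of the 10, against 34 of all genes (0.233%). The members' median log2 fold change, NOD minus B16A, was -0.06, beside 0.03 for all tested genes, with 6 negative and 4 positive, and in all 10 the ranges of the 2 hosts overlapped, where 0.39% of all tested genes were lower and 0.205% higher in NOD hosts without overlap. Leaving out 1 library of batch 4 moved that median to -0.54 (NOD library out) or 0.35 (B16A library out), and leaving out both kept it at -0.06. With the batch as a term the count was again 0 (0% of all genes called) and the median -0.07, beside 0.01 for all genes, and 0 of the 10 had an unadjusted p under 0.05, as 5.87% of all genes did. The 95% intervals were narrower with this term. Their lowest bound was -0.69 (Tap2) and their highest 0.55 (Psmb8) on the log2 scale, short of a 2-fold difference. DESeq2 and limma voom, each with and without the batch term, also called 0 of the members for which they gave an adjusted p. With the term DESeq2 gave an adjusted p for only 3563 genes and called 0.758% of these. Limma voom with the term called 0.0616% of all 14607 genes. No member kept 1 direction in all 4 batches, which 6.85% of all tested genes did as lower and 7.43% as higher in the NOD library.

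**Figure D1:**
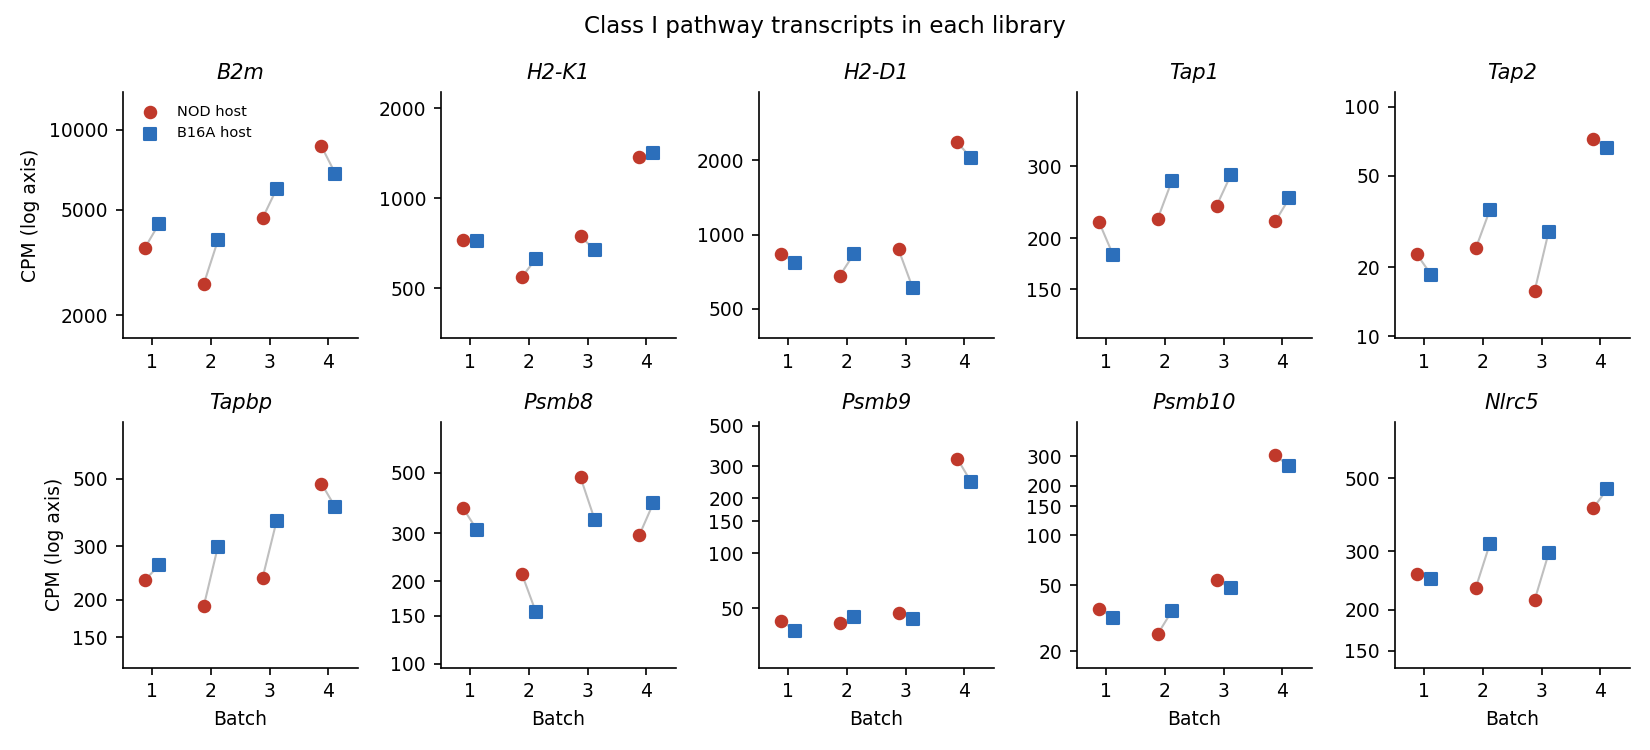
CPM of each of the 10 genes in each library on a log axis, by batch (red circles, NOD host; blue squares, B16A host; a grey line joins the 2 libraries of a batch; each point is 1 library, so there is no error bar). In batch 4 Psmb9 (330 and 245 CPM) and Psmb10 (304 and 261 CPM) lie far above batches 1 to 3, and in no gene do the red points all lie on 1 side of the blue ones.

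B2m is the gene of the light chain shared by class I molecules (chromosome 2, 122147686 to 122153083, build mm10). Its level was 3599, 2625, 4648 and 8669 CPM in the NOD libraries of batches 1 to 4 and 4433, 3833, 5995 and 6824 CPM in the B16A libraries. The NOD library was the lower one in batches 1 to 3 and the higher one in batch 4, and the groups overlapped. Means were 4885 ± 2654 and 5271 ± 1379 CPM (SD, n = 4 per host). The fitted log2 change, NOD minus B16A, was -0.11 (SE 0.43), with a 95% interval from -1.09 to 0.87 (edgeR, adjusted p = 0.9999). Fitted to batches 1 to 3 with the batch term it was -0.40 with an interval from -0.72 to -0.08 (edgeR, unadjusted p = 0.0159, adjusted p = 0.423), so the difference did not pass there either.

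H2-K1 and H2-D1 are the classical heavy chains, on chromosome 17 at 33996017 to 34000347 and 35262730 to 35267499. H2-K1 stood at 726, 544, 746 and 1377 CPM in NOD hosts and at 719, 627, 670 and 1414 CPM in B16A hosts. Of the 10 genes it had the fitted host difference nearest to 0, -0.02 on the log2 scale, with 95% intervals from -0.94 to 0.91 without the batch term and from -0.30 to 0.26 with it (edgeR, adjusted p = 0.9999 and 0.998). H2-D1 stood at 834, 681, 870 and 2357.5 CPM in NOD hosts and at 768, 834, 609 and 2033 CPM in B16A hosts. Its NOD library was the higher one in batches 1, 3 and 4, and the fitted log2 change was 0.16 (SE 0.54, edgeR, adjusted p = 0.9999). The ratio of H2-K1 to H2-D1 counts per kilobase, which needs no scaling between libraries, was 0.976 to 1.43 in batches 1 to 3 and 0.758 (NOD) and 0.903 (B16A) in batch 4. Both levels are uncertain: 9.63% (H2-K1) and 12.8% (H2-D1) of their 50-base windows also occur in other genes. For H2-K1 the NOD strain also carries another allele than the C57BL/6J reference, which bears on the ratio too.

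Tap1 and Tap2 form the peptide pump. The 4 NOD libraries lay close together for Tap1 (chromosome 17, 34187553 to 34197225), at 219, 223, 240 and 220 CPM. In B16A hosts it spread more, at 182, 276, 285 and 251 CPM, and its lowest value, in batch 1, was below all 4 NOD libraries. The fitted log2 change was -0.14 (SE 0.23, edgeR adjusted p = 0.9999). Tap2 (34203527 to 34216321) stood at 22.7, 24.1, 15.7 and 72.3 CPM in NOD hosts and at 18.6, 35.4, 28.5 and 66.1 CPM in B16A hosts, the least abundant of the 10. Its widest within-batch gap was a log2 ratio of -0.85 in batch 3, where counting error alone has a standard error of 0.18, and its fitted log2 change was -0.14 (SE 0.58, edgeR adjusted p = 0.9999). The Tap1 to Tap2 ratio per kilobase was 9.07 to 17.7 in batches 1 to 3 and 3.54 and 4.42 in the NOD and B16A libraries of batch 4.

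Tapbp is the gene of tapasin (chromosome 17, 33915899 to 33929292), and its level was 232, 191, 236 and 482 CPM in NOD hosts and 260, 299, 364 and 402 CPM in B16A hosts. In batches 1 to 3 every NOD library was below every B16A library, and in batch 4 the order turned. Tapbp was the 1 member of 10 whose groups did not overlap in batches 1 to 3, where 5.44% of all tested genes were lower and 4.75% higher in NOD hosts without overlap. The fitted log2 change over 8 libraries was -0.22 (SE 0.35, edgeR adjusted p = 0.9999). Without batch 4 and with the batch term it was -0.48 (SE 0.15, edgeR unadjusted p = 0.00258), which did not pass over all genes (adjusted p = 0.209). Exons of Gm19412 on the other strand cover 24.9% of the exon bases of Tapbp, and that gene had 0 to 2 counts per library. If the counting ignored strand, reads from the shared bases could have been left out of both. The same holds for Psmb8 with Gm20496 (14.7% of its exon bases), Tap2 with Gm15821 (14.1%), Psmb9 with Tap1 (5.79%) and Nlrc5 with 9330175E14Rik (0.918%). Exons of Zbtb22, on the same strand as Tapbp, cover 4.11% of its exon bases.

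The 3 inducible proteasome subunits did not share 1 pattern. Psmb8 (chromosome 17, 34197721 to 34201454), the inducible counterpart of Psmb5, stood at 371, 214, 480 and 295 CPM in NOD hosts and at 308, 155, 336 and 387 CPM in B16A hosts. Its NOD library was the higher one in batches 1 to 3, with log2 ratios of 0.27, 0.47 and 0.51, and the lower one in batch 4, at -0.39. The fitted log2 change was 0.20 (SE 0.37, edgeR adjusted p = 0.9999) over 8 libraries. Without batch 4 and with the batch term it was 0.42 (SE 0.14, edgeR unadjusted p = 0.00586), which did not pass over all genes (adjusted p = 0.287). Psmb9 (34181987 to 34187764), the counterpart of Psmb6, stood at 42.7, 41.3, 46.7 and 330 CPM in NOD hosts and at 37.6, 44.8, 43.7 and 245 CPM in B16A hosts. Psmb10 (chromosome 8, 105935735 to 105938444), the counterpart of Psmb7, stood at 36.1, 25.4, 53.6 and 304 CPM in NOD hosts and at 31.8, 35.0, 48.4 and 261 CPM in B16A hosts. For both genes the hosts overlapped in batches 1 to 3, and both batch 4 libraries lay far above them. Intervals of the fitted log2 change ran from -1.80 to 2.43 for Psmb9 and from -2.11 to 2.42 for Psmb10, against -0.16 to 0.47 and -0.30 to 0.37 with the batch term (edgeR, adjusted p = 0.9999 without it, 0.955 and 0.998 with it).

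Nlrc5, the coactivator (chromosome 8, 94434356 to 94527272), was measured at 256, 232, 213 and 406 CPM in NOD hosts and at 247, 316, 296 and 463 CPM in B16A hosts. The NOD library was the lower one in batches 2, 3 and 4 and stood level in batch 1, where the log2 ratio was 0.05 with a counting error of 0.05. Means were 277 ± 87.9 and 331 ± 93.0 CPM (SD, n = 4 per host), and the fitted log2 change was -0.25 (SE 0.32) with an interval from -0.98 to 0.47 (edgeR, adjusted p = 0.9999). With the batch term it had the smallest p of the 10 genes, at -0.26 with an interval from -0.55 to 0.03 (edgeR, unadjusted p = 0.0728, adjusted p = 0.876).

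**Figure D2:**
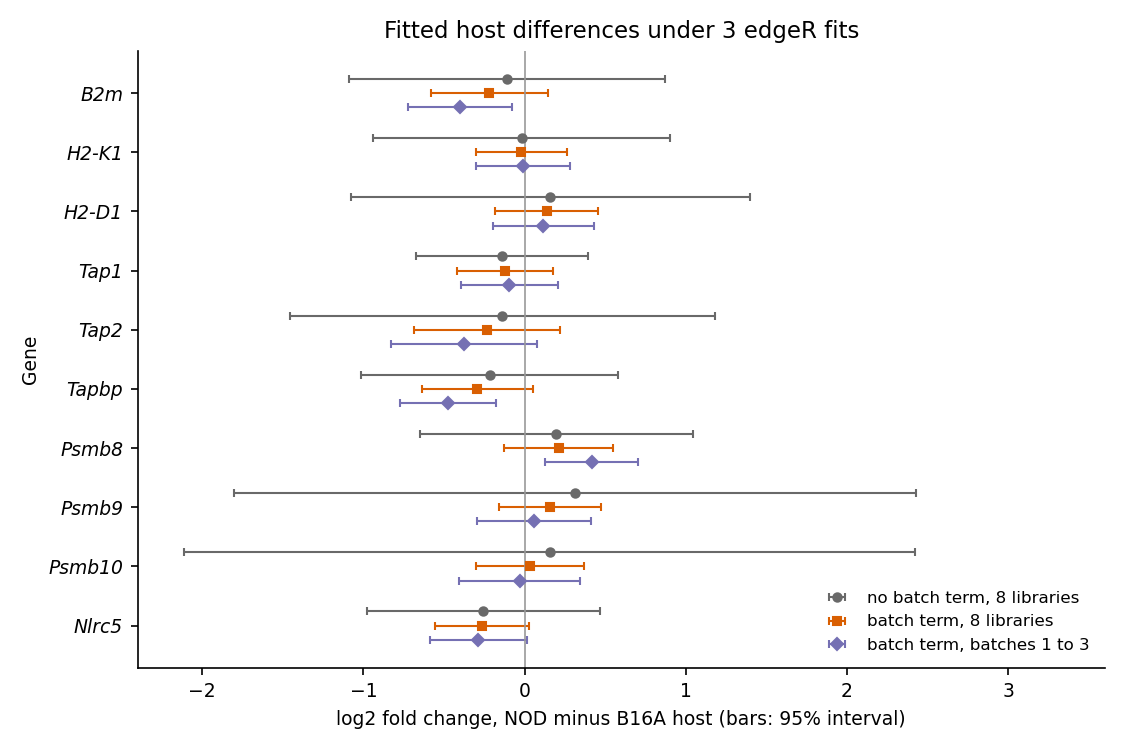
Log2 fold change, NOD minus B16A host, of each gene under 3 edgeR fits (circles, no batch term and 8 libraries; squares, batch term and 8 libraries; diamonds, batch term and batches 1 to 3), with bars for the 95% interval. The intervals of Psmb9 and Psmb10 shrink most with the batch term, and the diamonds of B2m, Tapbp and Psmb8 have intervals that leave out 0, although none passed over all genes.

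Set side by side within batches, the genes did not share 1 direction. The NOD library was lower for 2 of 10 in batch 1, for 9 in batch 2, for 5 in batch 3 and for 4 in batch 4, and the median log2 ratios were 0.15, -0.38, -0.08 and 0.17. Over all tested genes the medians were 0.00, 0.05, -0.03 and 0.00, and the shares lower in the NOD library were 50.0%, 46.6%, 52.0% and 46.9%. B2m and Tapbp were lower in the NOD library in each of batches 1 to 3, as were 14.4% of all tested genes, and Psmb8 was higher in each, as were 15.4%. B2m, Tap1, Tap2, Tapbp and Nlrc5, named after their values were seen, were lower in both batch 2 and batch 3, 5 of 10 beside 25.8% of all tested genes. H2-K1, H2-D1, Psmb9 and Psmb10 were lower in batch 2 and higher in batch 3. Without batch 4 and with the batch term 3 of 10 members had an unadjusted p under 0.05 (8.37% of all genes did) and 0 of 10 passed after adjustment (edgeR, 0.204% of all genes passed, 0.159% higher and 0.0445% lower in NOD hosts).

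**Figure D3:**
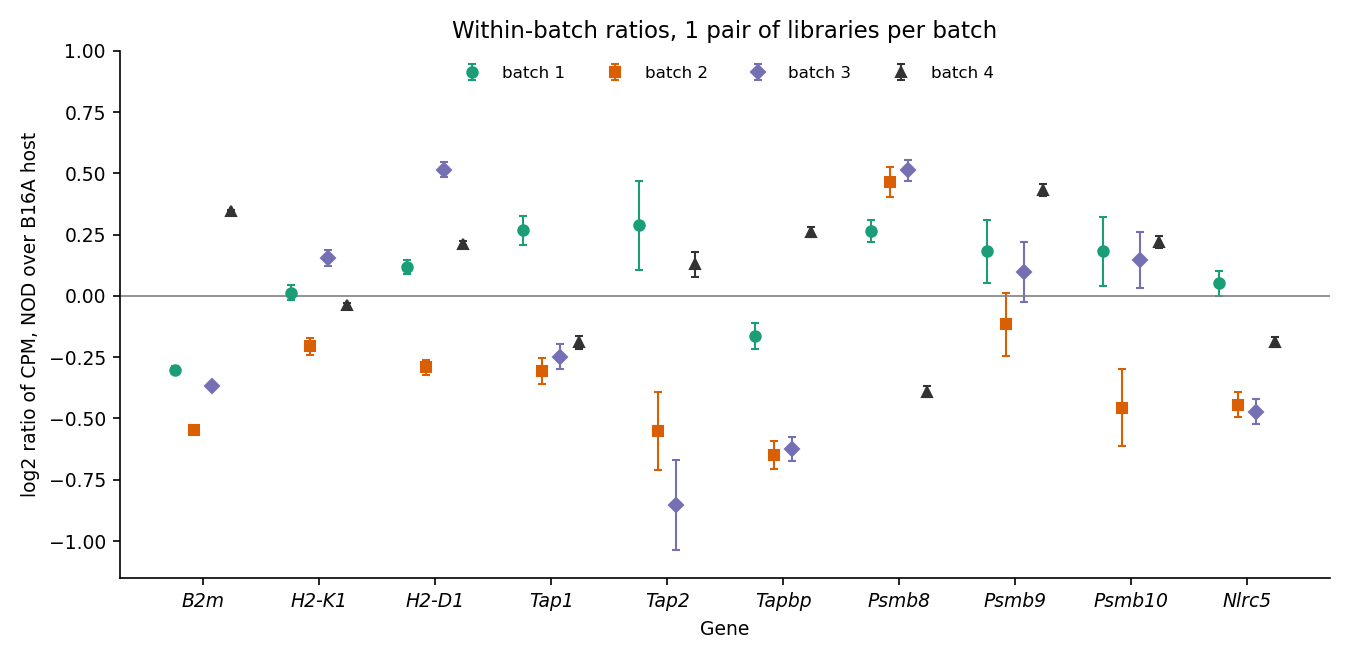
Difference of log2 CPM, NOD library minus B16A library, within each batch (marker shape and colour give the batch; bars are 1 standard error from counting alone, which leaves out biological and technical spread). B2m, H2-K1, Tap2, Tapbp and Psmb8 change sign between batch 3 and batch 4, and the Psmb8 ratio of -0.39 in batch 4 faces 0.27 to 0.51 in the other 3.

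The exchange of constitutive for inducible subunits was compared through ratios within a library. The log2 ratio of Psmb8 to Psmb5 counts per kilobase was 6.36, 5.09, 6.17 and 3.73 in NOD hosts and 5.51, 5.45, 5.06 and 4.78 in B16A hosts, means of 5.34 ± 1.21 and 5.2 ± 0.345 (SD, n = 4 each). Psmb5 drew only 12 to 34 counts per library outside batch 4 and 274 (NOD) and 185 (B16A) in it, so this ratio is poorly determined. That of Psmb9 to Psmb6 was -1.07, -0.23, -1.22 and -0.82 in NOD hosts and -0.87, -0.23, -0.59 and -0.81 in B16A hosts. Per kilobase the inducible subunit was the scarcer of the pair in all 8 libraries, which rests on the transcript lengths used. By CPM Psmb9 was above Psmb6 in batch 2 (NOD 41.3 against 28.6, B16A 44.8 against 31.1). The same held in the B16A library of batch 3 (43.7 against 38.7), and Psmb9 was below Psmb6 in the rest. That of Psmb10 to Psmb7 was 1.23, 0.95, 2.02 and 2.27 in NOD hosts and 0.79, 1.23, 1.57 and 2.34 in B16A hosts, with the inducible subunit above its counterpart in all 8. None of the 3 ratios differed between hosts beyond their spread: the differences were 0.14, -0.21 and 0.14 (exact two-sided permutation test over 70 arrangements, p = 0.886, 0.457 and 0.8, adjusted p = 0.886 for each over the 3 ratios, smallest possible p = 0.0286). Within batches 1 to 4 the differences were 0.85, -0.36, 1.11 and -1.05 for Psmb8 to Psmb5, -0.20, 0.00, -0.63 and -0.01 for Psmb9 to Psmb6, and 0.44, -0.28, 0.46 and -0.07 for Psmb10 to Psmb7.

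**Figure D4:**
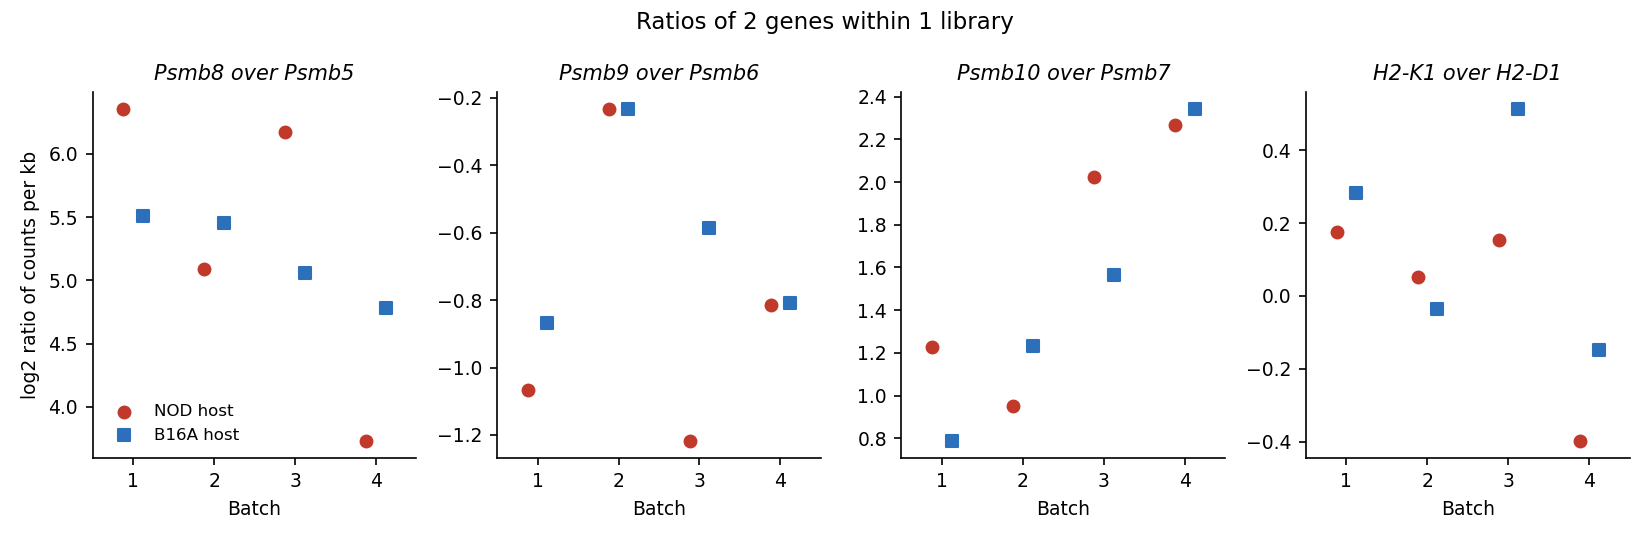
Log2 ratio of counts per kilobase of 2 genes within each library, by batch (red circles, NOD host; blue squares, B16A host; 1 point per library, no error bar, and each panel has its own axis). The Psmb10 to Psmb7 ratio is highest in batch 4 (2.27 and 2.34), and the H2-K1 to H2-D1 ratio is lowest there (-0.40 and -0.15).

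In batch 4 most of these transcripts lay above their level in batches 1 to 3, and unequally so. The mean CPM of the batch 4 libraries over that of batches 1 to 3 was 7.36-fold for Psmb10 and 6.72-fold for Psmb9, 2.87-fold for H2-D1 and 2.86-fold for Tap2. It was 2.08-fold for H2-K1, 1.85-fold for B2m, 1.68-fold for Tapbp, 1.67-fold for Nlrc5, 1.10-fold for Psmb8 and 0.991-fold for Tap1. Psmb8 and Psmb9, which lie near each other on chromosome 17 and serve 1 proteasome, stood at 2.86 to 8.51 Psmb8 per Psmb9 per kilobase in batches 1 to 3 and at 0.743 (NOD) and 1.31 (B16A) in batch 4. Tap1 and Psmb9 are read from RefSeq start sites 225 bases apart. They stood at 2.21 to 2.98 Tap1 per Psmb9 per kilobase in batches 1 to 3 and at 0.305 and 0.469 in batch 4. In GENCODE vM21 their exons share 212 bases on opposite strands, 3.87% of the exon bases of Tap1 and 5.79% of those of Psmb9. If the counting ignored strand, reads from these bases could have been left out of both. The ratios between members were chosen after their values were seen and were not tested. Actb took 8.98% and 8.33% of the counts in batch 4 and 0.773% to 1.51% elsewhere, and the part of this difference in RNA makeup in the class I values was not tested.

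Per kilobase of the principal transcript (CPM per kilobase, RPKM), B2m headed the order of levels in every batch, and the order below it differed in batch 4. In batches 1 to 3 the mean level was 4871 RPKM for B2m, 415 for H2-K1, 364 for H2-D1, 191 for Psmb8, 90.9 for Tapbp, 80.5 for Tap1, 34.3 for Nlrc5, 31.7 for Psmb9, 29.3 for Psmb10 and 7.02 for Tap2. B2m was above H2-K1, H2-D1 above Psmb8, Tap1 above Nlrc5, and Psmb10 above Tap2 in all 6 of these libraries. H2-K1 was above H2-D1, Psmb8 above Tapbp, Tapbp above Tap1, and Nlrc5 above Psmb9 in 5 of 6, and Psmb9 above Psmb10 in 4 of 6, so these neighbours do not separate beyond their spread. In batch 4 H2-D1 (1122 and 967 RPKM in the NOD and B16A libraries) was above H2-K1 (851 and 874), and Psmb10 (232 and 199) and Psmb9 (244 and 181) stood near Psmb8 (181 and 238).

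The rest of the pathway was described through lists, and edgeR called 0 of their genes in either direction with or without the batch term. Over all tested genes the median log2 change was 0.03 and 45.9% were negative. The list of peptide loading and trimming in the endoplasmic reticulum had 2 of 5 genes negative without the batch term and 3 with it. Its smallest p was that of Canx (calnexin, a chaperone of new heavy chains), with a log2 change of -0.25 (SE 0.13, edgeR with the batch term, adjusted p = 0.876). For Tapbpl, a tapasin-like peptide editor, it was 0.15 (SE 0.19, adjusted p = 0.966). Of the other class I and class I-like heavy chains 19 of 22 names were in the table and 18 were tested, with 4 negative and a median of 0.23 (6 negative and 0.11 with the batch term). H2-Q10, a heavy chain with secreted forms, had 0.53 (SE 0.25, edgeR with the batch term, adjusted p = 0.857). Fcgrt, the receptor that recycles antibody, had 1.44 (SE 0.66, adjusted p = 0.844) at means of 4.72 and 1.95 CPM. The 8 genes of constitutive subunits, activators and assembly had 2 negative and a median of 0.20, against 4 negative and 0.00 with the batch term. Psmb6 had 0.37 (SE 0.16, edgeR with the batch term, adjusted p = 0.842), and Psme4, a proteasome activator, -0.27 (SE 0.15, adjusted p = 0.887).

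Factors that act at class I promoters also did not pass: 4 of 12 were negative, with a median of 0.09. Rfxank, a subunit of the RFX complex, was measured at 34.2, 30.7, 32.4 and 69.6 CPM in NOD hosts and at 24.2, 27.6, 25.6 and 38.8 CPM in B16A hosts. The NOD library was the higher one in all 4 batches, and the log2 change was 0.47 (SE 0.18, edgeR with the batch term, adjusted p = 0.795). Of 6 cytosolic peptidases tested 2 were negative, and Npepps had 0.14 and Lnpep -0.13 (edgeR with the batch term, adjusted p = 0.961 for both). For class II presentation 10 of 12 genes were tested and 1 was negative, with a median of 0.23, against 5 negative and 0.03 with the batch term. Cd74, the invariant chain, had 0.38 (SE 0.15, edgeR with the batch term, adjusted p = 0.798). Ciita, the class II coactivator related to Nlrc5, had 1.44 (SE 0.58, adjusted p = 0.821) at means of 3.90 and 1.66 CPM. Both were the higher ones in the NOD library of all 4 batches. The median within-batch log2 ratios of the class II list were 0.17, 0.50, 0.21 and -0.20. The summed myeloid and dendritic cell markers were also higher in the NOD library in batches 1 to 3 (122 against 107, 146 against 91.3 and 123 against 109 CPM) and lower in batch 4 (133 against 144 CPM). Much of these sums was Cst3 alone, at 56.3, 41.3, 63.6 and 120 CPM in NOD hosts. In B16A hosts it stood at 46.9, 27.6, 42.1 and 130 CPM. In batch 3 the gap between hosts was wider for Cst3 than for the sum, so the other markers together went the other way there. The summed B cell markers were higher in the NOD library in batches 1 and 2 and lower in batches 3 and 4. The part of either cell type in the class II values was not tested.

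Interferon-induced genes are the usual companions of this pathway, and here the medians of the 2 sets lay apart in batches 2 and 3. The 9 tested of 10 listed genes had medians of -0.03, -1.46, -3.29 and 0.40 for the within-batch log2 ratio (batches 1 to 4). All 9 were lower in the NOD library in both batches 2 and 3, as were 25.8% of all tested genes. In batch 3, where that median was -3.29, the median of the 10 class I pathway genes was -0.08, with members on both sides. There Tap2 (-0.85), Tapbp (-0.63), Nlrc5 (-0.47), B2m (-0.37) and Tap1 (-0.25) were lower in the NOD library, as they were in batch 2. H2-D1 (0.52), Psmb8 (0.51), H2-K1 (0.15), Psmb10 (0.15) and Psmb9 (0.10) were higher. The batch 3 libraries held Mx1, an antiviral effector, at 0.654 CPM (NOD) and 27.8 CPM (B16A), and Cmpk2, a mitochondrial nucleotide kinase, at 3.27 and 36.4 CPM. In batches 1, 2 and 4 the B16A libraries held Mx1 at 1.52, 7.33 and 4.23 CPM and Cmpk2 at 7.46, 10.6 and 9.39 CPM. The B16A library of batch 3 was thus the highest of its host for both, as it was for most of the 9 tested genes. Without batch 4 and with the batch term 2 of the listed genes were called lower in NOD than in B16A hosts, where 0.0445% of all genes were. They were Cmpk2 (log2 change -2.14, SE 0.38) and Rtp4 (-1.10), with adjusted p = 0.00905 and 0.00975 (edgeR). Neither passed in all 8 libraries: with the batch term Cmpk2 had -1.63 and Rtp4 -0.58 (edgeR, adjusted p = 0.683 and 0.908). Rtp4 was higher in the NOD library of batch 4 by 0.79 and had 0.10 over 8 libraries without the batch term. Batches 1 to 3 without the batch term gave 0% of all genes called. No test was made of the difference between the 2 sets.

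**Figure D5:**
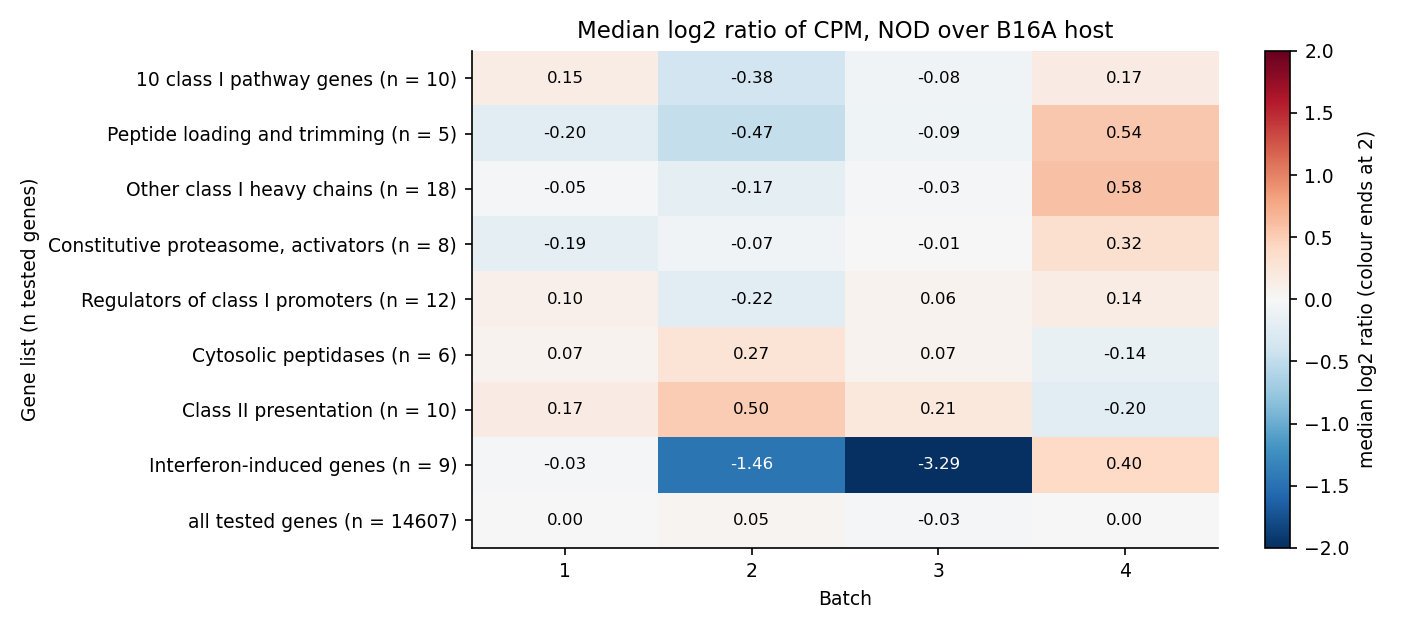
Median difference of log2 CPM, NOD library minus B16A library, for each list of tested genes within each batch (red above 0, blue below 0, colour ends at 2 in either direction; n gives the genes, and each batch is 1 pair of libraries). The interferon-induced list has -1.46 and -3.29 in batches 2 and 3, while the 10 class I pathway genes have -0.38 and -0.08.

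Among 8080 genes outside the set with a mean of at least 10 CPM, those whose 4 within-batch ratios lay nearest to the median of the 10 were Ppm1h, Arhgap27, Nbas, Esyt1 and Etv3, with root mean square differences of 0.035 to 0.043 on the log2 scale over 4 batches. Of the 10 genes themselves Psmb10 lay nearest to that median (0.12) and Psmb8 farthest (0.59).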

How the data were processed

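RNA of 8 samples of sorted T cells was amplified and read as single reads of 50 bases, per the labels' protocols. The authors deposited 1 table of raw counts per gene. The submitters' processing notes name STAR, HTSeq, DESeq2 and the build mm10; for versions, annotation and strand, the setting is not given in the sources used here. Samples were grouped by title. As no label ties the samples of a group to separate animals, p-values measure only the spread among them, part of which may be technical. The members, lists and tests were chosen with earlier results of these data known.

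The test of the counts was edgeR's quasi-likelihood test (version 4.0.16, R 4.3.3; glmQLFit with robust estimation, glmQLFTest) after filterByExpr and TMM normalization, with 4 against 4 libraries and no batch term, and Benjamini-Hochberg adjustment over 14607 genes at a threshold of 0.05. Standard errors and 95% intervals derive from the quasi-likelihood F statistic. CPM uses TMM-adjusted library sizes, and within-batch ratios are differences of log2 CPM with a prior count of 2. Counting errors treat reads as independent molecules. Ratios within a library use counts plus 0.5, exact permutation tests in scipy 1.17.1, and principal transcript lengths from GENCODE vM21, which also gives gene positions (GRCm38, the assembly of mm10). Of the 50-base windows of member transcripts, 12.8% (H2-D1), 9.63% (H2-K1), 23.2% (Tapbp), 11.9% (Psmb8) and 11.6% (Tap2) also occur in transcripts of other genes, on either strand, and 0% for B2m and Psmb10; such reads could be split or lost. The DESeq2 1.42.0 and limma 3.58.1 fits, other size factors, no filter, left-out libraries and the batch term were alternatives.

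Libraries of a batch are paired, as the labels name the number a batch. Across genes, deviations from the host mean correlated within batches 1 to 4 at r = 0.408, 0.482, 0.367 and 0.891, and between NOD and B16A libraries of different batches at -0.671 to 0.516. All pairs of libraries differed by more than sampling noise (smallest chi-square per degree of freedom 8.54). The text names all 10 members. From each list it names up to 4 genes that passed, and where none did the 2 of smallest p with the batch term, and it names the 5 genes nearest to the members' median pattern. Rtp4 was named after its values were seen. For 1 gene that this rule names the result is not reported here.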

Additional observations from a re-analysis of the deposited data

Results flagged for a closer look

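In 9 of 26 groups of 4 libraries examined (10 genes and 3 ratios in each host), the batch 4 library lay far from the other 3. The rule was a gap above 0.829 of the group's range. For 1 group of normally spread values chance passes it about 1 time in 20. All 9 rest on the same 2 libraries, so the groups are not independent and their number is not held against that rate. The CPM values of the batch 4 library were 330 (NOD) and 245 (B16A) for Psmb9, 304 and 261 for Psmb10, 2357.5 and 2033 for H2-D1, 1414 for H2-K1 in B16A hosts, and 72.3 for Tap2 and 482 for Tapbp in NOD hosts. Psmb9 had the widest gaps, at 0.981 and 0.965 of the whole range of its group. The same 2 libraries also differ from the rest in depth and in the share of Gm10800 and Actb, and the part of that makeup in these values was not tested.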

How the results depend on the processing

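Each alternative gave 0 members past the threshold, as did leaving out each library in turn (0 to 0); DESeq2 gave no adjusted p for Psmb9 and Psmb10, nor for Tap2 with the batch term. The batch term (replicate block) changed no call of a member, with a median log2 fold change of -0.07 against -0.06. Leaving out each library in turn moved that median from -0.54 (without NOD replicate 4) to 0.35 (without B16A replicate 4), both of which keep batch 4 in 1 host only. The corresponding ranges were -0.56 to 0.098 for B2m, -0.38 to 0.36 for H2-K1, -0.45 to 0.72 for H2-D1, -0.87 to 0.33 for Tap2, -0.024 to 0.37 for Psmb8, -1.14 to 1.5 for Psmb9 and -1.34 to 1.5 for Psmb10, each crossing 0. For Tap1, Tapbp and Nlrc5 they stayed negative. H2-K1 was above 0 with DESeq2 (0.0023), DESeq2 size factors (0.0023), limma voom (0.059), limma voom with the replicate block (0.018), without batch 2 with the block (0.042) and without both batch 4 libraries (0.0037). Psmb10 was below 0 with the block and without batch 1 (-0.023), batch 3 (-0.00033) or batch 4 (-0.030). The cause was not tested. The ratios ranged from -0.20 to 0.67 for Psmb8 to Psmb5, -0.097 to 0.42 for Psmb10 to Psmb7 and -0.41 to -0.080 for Psmb9 to Psmb6 as libraries were left out. Flipping signs within batches gave adjusted p = 0.875, 0.75 and 0.75 for Psmb8, Psmb9 and Psmb10 in the exact permutation test (smallest possible p 0.125, and 0.0571 with 1 library left out), so these tests could not pass. In batches 1 to 3 with the block 2 list genes passed, against 0 in all 8 libraries. For 7 of the 10 genes a 2-fold difference lies within the 95% interval of the fit without a batch term. With the batch term the bounds reached -0.69 (Tap2) and 0.55 (Psmb8) at the widest, short of a 2-fold difference. Limma voom held 2 members at an unadjusted p under 0.05 without the batch term and 3 with it, as it did 1020 and 1173 of all 14607 genes.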
